A study of Mus musculus with 20 samples.

Results

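Small RNA of the whole mouse testis was compared between day 3 and day 1 after birth. The comparison rests on 4 of the 20 libraries of the series, 2 from each day, and its features are the 4940 rows of a count table, each a family of small RNAs that share a stretch of 7 bases. All mice were wild-type C57BL/6J and untreated, and each testis was used whole after its capsule was taken off. Both days had 2 biological replicates; the number of animals behind a library is not given in the sources used here. The series also holds whole testis of day 7 and purified leptotene/zygotene and pachytene spermatocytes of adults, with 2 replicates per stage for small RNA and for RNA. Of these, the 2 small RNA libraries of day 7 shared in the estimate of the spread.

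A microRNA (miRNA) is cut from a hairpin precursor as a duplex of a 5p and a 3p arm, and usually one arm is loaded into an Argonaute protein while the other is degraded. The loaded strand finds its targets mainly through its seed, bases 2 to 8, so miRNAs with the same seed form a family and here share a row. Between these days the prenatal germ cells, or gonocytes, leave arrest, divide again and move to the rim of the cords, while Sertoli, Leydig, peritubular, vascular and blood cells make up most of the organ. In bulk tissue, fewer cells of a type and less RNA per cell cannot be told apart.

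The rows carry no names. They were matched to the seeds of the mature mouse miRNAs of RefSeq (GRCm38.p6), which named 1127 rows holding 84.7% to 87.1% of the counts in the 4 libraries. The RefSeq table used here is not complete, so a row without a name can be a miRNA and a named row can hold further ones. The sequences below belong to the families on which the results turn, with the seed in capitals.

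The first 6 are the arms of 3 hairpins of the imprinted Dlk1-Dio3 region of chromosome 12, shown because both arms changed.
miR-434-5p: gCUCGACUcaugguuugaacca
miR-434-3p: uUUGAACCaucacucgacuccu
miR-136-5p: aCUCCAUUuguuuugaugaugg
miR-136-3p: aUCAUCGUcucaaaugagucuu
miR-409-5p: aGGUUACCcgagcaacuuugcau
miR-409-3p: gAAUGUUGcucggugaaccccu

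The next 4 come from the X-linked cluster of spermatogenic miRNAs, in which miR-743a-5p and miR-871-5p share a seed whereas their 3p arms do not.
miR-743a-5p: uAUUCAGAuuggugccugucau
miR-871-5p: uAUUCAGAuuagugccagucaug
miR-743a-3p: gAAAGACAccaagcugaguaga
miR-871-3p: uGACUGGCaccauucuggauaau

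The following sets share a row because they share a seed: the 5p arms of the early embryonic miR-290 cluster, then miR-92a with miR-25 and miR-363, which are spread over several clusters.
miR-290a-5p: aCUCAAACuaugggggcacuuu
miR-292a-5p: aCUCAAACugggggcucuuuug
miR-293-5p: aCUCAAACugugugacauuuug
miR-92a-3p: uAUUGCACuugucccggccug
miR-25-3p: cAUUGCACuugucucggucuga
miR-363-3p: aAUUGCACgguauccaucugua

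The last set holds families described singly, with miR-199a shown as both arms, miR-450a beside miR-450b to show that the neighbouring seeds differ, and miR-99a with miR-100.
miR-199a-5p: cCCAGUGUucagacuaccuguuc
miR-199a-3p: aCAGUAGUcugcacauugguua
miR-106b-3p: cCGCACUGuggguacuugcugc
miR-142a-5p: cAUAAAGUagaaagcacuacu
miR-450b-5p: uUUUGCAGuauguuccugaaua
miR-450a-5p: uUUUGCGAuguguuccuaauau
miR-99a-5p: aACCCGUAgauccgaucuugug
miR-100-5p: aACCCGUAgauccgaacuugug

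On GRCm38.p6, miR-434-5p lies at chr12:109594528-109594549 and miR-434-3p at chr12:109594565-109594586, both on the plus strand, within the run of miRNAs antisense to Rtl1. On the X chromosome miR-871-5p lies at chrX:66810472-66810494 and miR-743a-5p at chrX:66776794-66776815, both on the minus strand.

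The libraries differed in depth along with the day. The day 1 libraries held 1421742 and 2200358 counts, the day 3 libraries 11061273 and 8511122, and the day 7 libraries 3392587 and 8591736. A count of 3, taken as the floor of detection, was thus worth 2.11 and 1.36 CPM (counts scaled to a library of 1000000) on day 1 and 0.271 and 0.352 CPM on day 3. Such floors cover counting error only. The log2 levels of replicates differed with an SD of 0.754 on day 1, 0.589 on day 3 and 0.419 on day 7. Levels below are CPM on TMM-scaled library sizes, given as replicate 1 then replicate 2.

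Between day 1 and day 3 a set of rows rose and another fell, while the most abundant row, that of miR-10, did not pass the test. miR-199a-5p, miR-434-5p, miR-136-5p and miR-142a-5p rose. The row of miR-92a and miR-25 fell, as did miR-409-3p, the shared row of miR-743a-5p and miR-871-5p, and the shared row of 5p arms of the miR-290 cluster. Which member of a shared row changed cannot be told. In all, 131 of the 854 rows with enough counts to test (15.3%) passed edgeR's quasi-likelihood test at a Benjamini-Hochberg adjusted p of 0.05. Of these, 74 were higher on day 3 (8.67% of rows tested) and 57 lower (6.67%). The balance of the 2 directions moved with the setting: 53 rows were higher and 54 lower with median-ratio size factors, 61 and 60 with upper-quartile factors, 55 and 60 without the 3 most abundant rows, 77 and 75 with DESeq2, and 124 and 33 with no filter on low counts. Among the 424 rows with a RefSeq name, 12.5% were higher and 7.55% lower, and the lists below, which hold named rows only, are set beside those shares. The median log2 fold change of all 854 rows was 0.07.

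The number of calls rests on the libraries that set the spread. It was 27 when the second day 7 library was left out and 27 when both day 7 libraries were, and leaving out the other libraries one at a time gave 35 (second day 1 library), 56 (first day 7), 63 (first day 1), 140 (first day 3) and 173 (second day 3). It was 0 when the spermatocyte libraries joined the fit, with 144 rows at an unadjusted p under 0.05, and 0 against a minimum change of 2-fold, with 103. Thinned to the depth of the smallest library, the table gave 110 calls, and DESeq2 gave 152. Of the 131 rows, 21 stayed past the test with each of the 6 libraries left out in turn, 13 of them higher and 8 lower, and these 21 were lost in no other fit apart from the 2 that called nothing. Among the 21, 14 had a RefSeq name, 7 of them higher and 7 lower. They are called stable in the following, and what a description says of other rows holds for the fit of the 6 testis libraries.

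**Figure D1:**
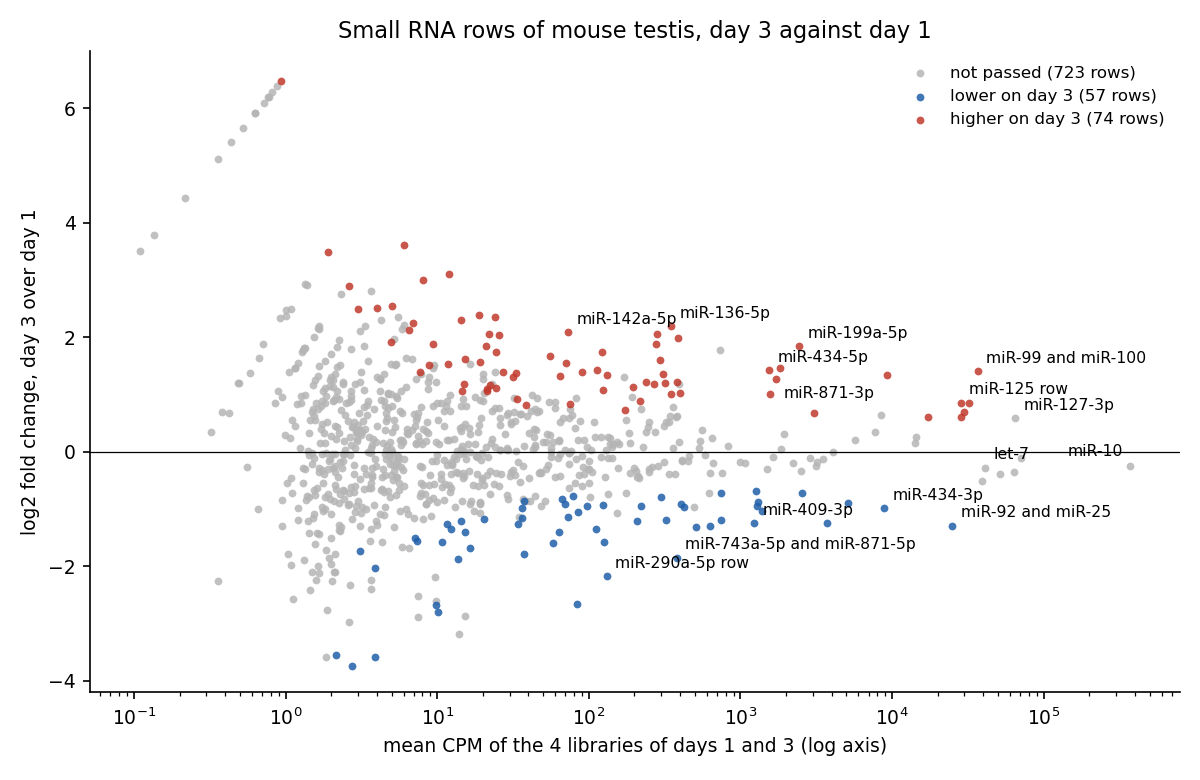
Log2 fold change of each of the 854 rows tested (day 3 over day 1, vertical axis) against its mean CPM in the 4 libraries (horizontal, log axis), with the 74 higher rows in red and the 57 lower rows in blue. The most abundant row, miR-10, lies at -0.25 and is grey, and the row of miR-92 and miR-25, at -1.29, is the most abundant blue one.

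Among the stable rows that rose, the level of miR-199a-5p was 1181 and 941 CPM on day 1 and 3815 and 3785 on day 3. Both day 3 libraries lay above both day 1 libraries; such a lack of overlap, in either direction, was seen in 506 of the 854 rows (59.3%). The log2 fold change was 1.84 ± 0.18 (SE; adjusted p = 0.00629). On day 7 its level was 1838 and 1896 CPM, between the others. miR-199b-5p has no entry in the RefSeq table used here, so whether the miR-199a-5p row holds it as well was not checked. One of the miR-199a hairpins is cut from the Dnm3os transcript, and the miRNA is known from mesenchyme. Its other arm, the row of miR-199a-3p and miR-199b-3p, was far more abundant, at 12706 and 13895 CPM on day 1 and 16648 and 13018 on day 3, and those libraries overlapped (0.16 ± 0.18, adjusted p = 0.572).

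miR-434-5p was at 857 and 821 CPM on day 1 and at 2423 and 2088 on day 3, with no overlap (1.43 ± 0.18, adjusted p = 0.00768). A row shifted by 1 base towards its 5′ end, as a read that starts a base earlier would give, went from 185 and 125 CPM to 601 and 631 (1.99 ± 0.25, adjusted p = 0.00768). miR-142a-5p, of the blood-cell hairpin Mir142, stood at 32.7 and 23.2 CPM on day 1 against 99.5 and 137 on day 3 (2.09 ± 0.28, adjusted p = 0.00843). The level of miR-450b-5p, of the X-linked miR-503-322-351 cluster, was 168 and 162 CPM on day 1 and 384 and 365 on day 3 (1.18 ± 0.19, adjusted p = 0.0143). Neither of these overlapped between the days. miR-484, miR-876-3p and the row of miR-24-1-5p and miR-24-2-5p were the other named stable rows that rose, by 1.22, 1.75 and 1.68 on the log2 scale.

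The largest stable fall among the rows named by rule was that of the row shared by miR-290a-5p, miR-292a-5p and miR-293-5p. It stood at 180 and 252 CPM on day 1 and at 55.8 and 40.5 on day 3 (-2.17 ± 0.26, adjusted p = 0.00768), so that both day 1 libraries lay above both day 3 libraries. On day 7 it was at 37.2 and 37.1 CPM. The shared row of miR-743a-5p and miR-871-5p was at 525 and 671 CPM on day 1 and at 178 and 155 on day 3, with no overlap (-1.85 ± 0.20, adjusted p = 0.00629). Its day 7 level, 714 and 722 CPM, was above both.

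The row of miR-92a, miR-92b, miR-25, miR-32, miR-363 and miR-367 stood at 34965 and 35807 CPM on day 1 and at 15124 and 13885 on day 3. Its log2 fold change was -1.29 ± 0.16 (adjusted p = 0.00768), and the row shifted by 1 base from it fell by 1.57 ± 0.22 on the log2 scale (adjusted p = 0.00985). miR-409-3p, at 1554 and 1897 CPM on day 1, was at 738 and 719 on day 3 (-1.24 ± 0.18, adjusted p = 0.00985). miR-106b-3p, whose hairpin lies beside Mir25 in an intron of Mcm7, was at 280.0 and 302 CPM on day 1 and at 131 and 122 on day 3 (-1.21 ± 0.18, adjusted p = 0.0112). None of these rows overlapped between the days, as the rule for naming them required. The other named stable rows that fell were miR-582-3p, by 1.78 on the log2 scale, and the row named by miR-6339 and miR-6386, by 1.29.

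**Figure D2:**
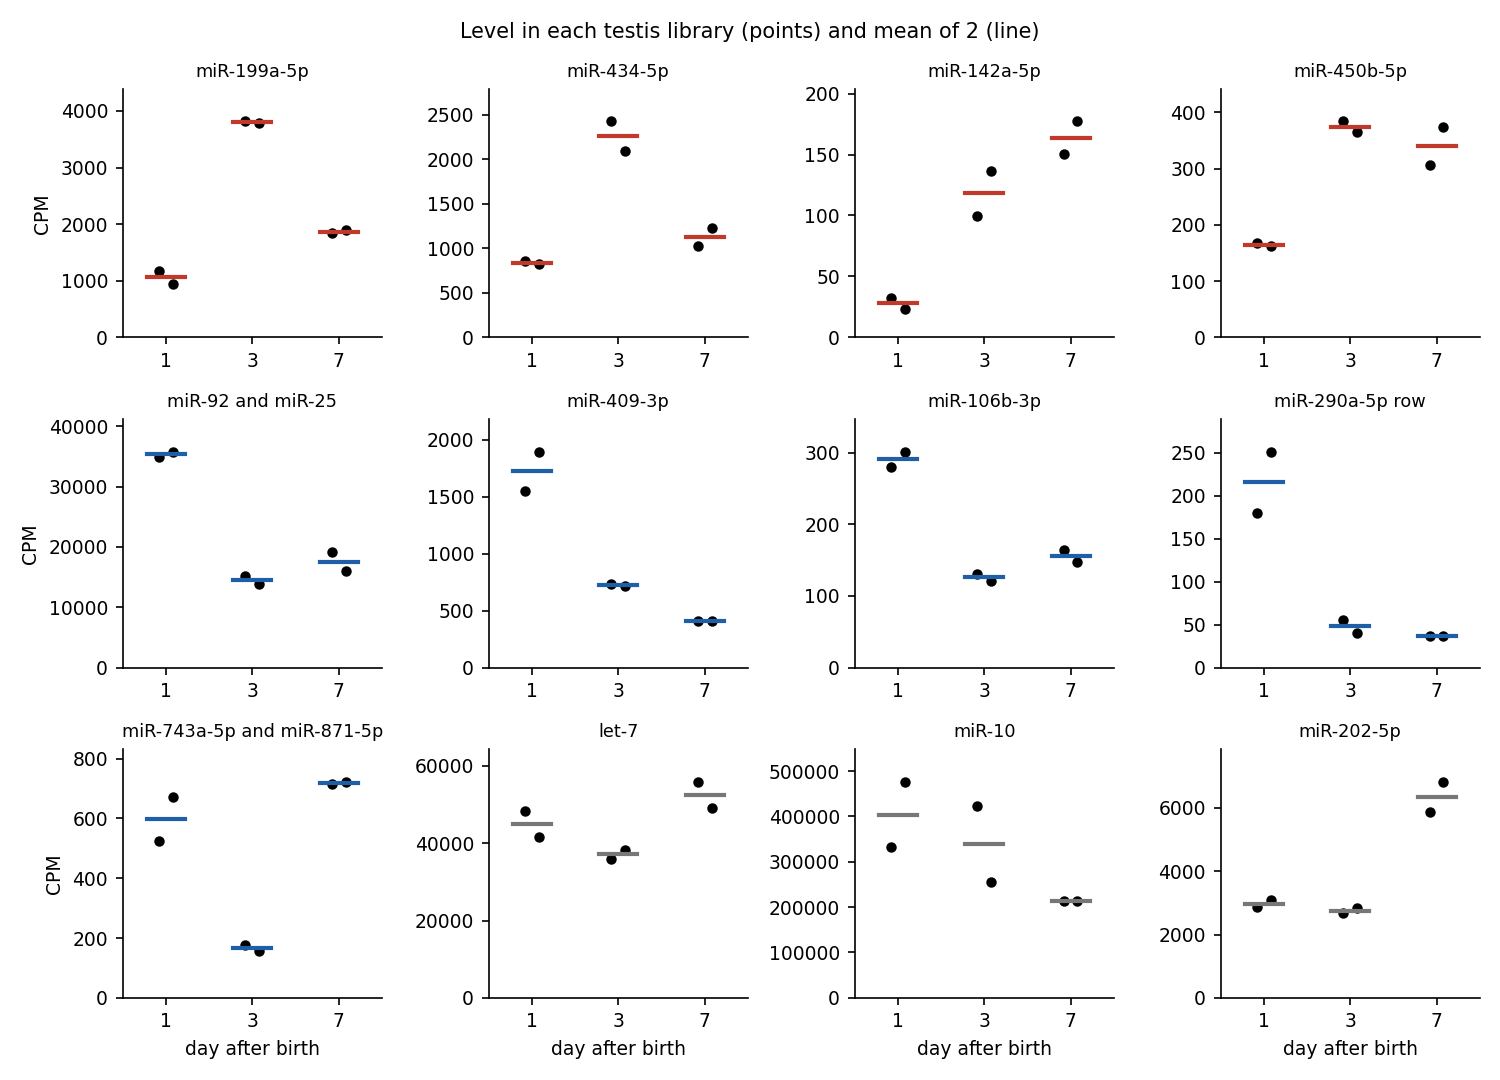
CPM of 12 rows in each of the 2 libraries (points) of days 1, 3 and 7, with the mean of the 2 as a line, red for rows higher on day 3, blue for lower and grey for not passed; each axis starts at 0. The day 3 points of the first 9 panels lie wholly above or below those of day 1, and miR-10 is the panel in which the days overlap. For the first 9 except miR-450b-5p, a lack of overlap was a condition of being named.

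Other named rows rose or fell in the fit of the 6 testis libraries but lost the call when 1 or more libraries were left out. miR-136-5p rose from 167 and 83.3 CPM to 430 and 712 (2.19 ± 0.40, adjusted p = 0.0213), and miR-136-3p from 75.0 and 48.5 CPM to 152 and 178 (1.43 ± 0.26, adjusted p = 0.0213). Both calls were lost without the second day 7 library, and that of miR-136-3p also without the second day 1 library. The row of miR-24-3p rose by 1.88 ± 0.39 on the log2 scale, and that of miR-500-3p and miR-501-3p by 1.74 ± 0.40; the first had 605 and 262 CPM on day 3 and the second 117 and 257, so the day 3 libraries differed by over 2-fold in both. miR-182-5p, of a cluster known from sensory cells and oocytes, fell from 4137 and 6395 CPM to 2470 and 1986 (-1.24 ± 0.26, adjusted p = 0.0268). miR-423-5p (-1.31 ± 0.27), miR-463-5p (-1.34 ± 0.32) and miR-676-3p (-1.20 ± 0.23) fell as well. Each of these 6 calls was lost without at least 2 of the 6 libraries, counted one at a time.

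Rows without a RefSeq name were also among the largest changes. One rose from 125 and 92.8 CPM to 461 and 440 (2.05 ± 0.21, adjusted p = 0.00629), another from 941 and 1006 CPM to 2717 and 2628 (1.46 ± 0.16, adjusted p = 0.00629), and one more from 39.6 and 33.2 CPM to 115 and 97.4 (1.55 ± 0.22, adjusted p = 0.00985). These 3 were stable. A row also without a name fell from 163 and 123 CPM to 11.0 and 34.4 (-2.66 ± 0.49, adjusted p = 0.0213), and was lost without the first day 1 or the second day 7 library.

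The bulk of the small RNA came from few families. The row of miR-10a-5p and miR-10b-5p, whose genes lie in the Hox clusters, took 27.2% to 41.1% of the counts. It was at 331707 and 476440 CPM on day 1 and at 423362 and 256519 on day 3. These libraries overlapped, and the row did not pass the test (-0.25 ± 0.26, adjusted p = 0.544). Nor did miR-127-3p of the Dlk1-Dio3 region, at 45748 and 57840 CPM on day 1 and 92596 and 63208 on day 3 (0.59 ± 0.21, adjusted p = 0.111). The let-7 family, whose maturation LIN28 proteins block in stem and germ cells, was at 48294 and 41469 CPM on day 1 and at 35859 and 38331 on day 3. Its libraries did not overlap, yet the change of -0.27 ± 0.15 did not pass (adjusted p = 0.258). The miR-181 (-0.35 ± 0.16) and miR-148 and miR-152 (-0.50 ± 0.17) families did not pass either.

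Of the 12 most abundant rows, 5 rose (41.7%), none fell and 7 did not pass. Of all rows tested 8.67% rose and 6.67% fell. Among the 50 rows with at least 1000 CPM in the higher group, 26% rose and 22% fell. The row of miR-99 and miR-100 was at 22983 and 17341 CPM on day 1 and at 35508 and 71144 on day 3 (1.40 ± 0.32, adjusted p = 0.0352), with the second day 3 library about 2 times as high as the first. The row of miR-125 and miR-351-5p went from 19663 and 20706 CPM to 34823 and 38187 (0.85 ± 0.14, adjusted p = 0.0147), and its libraries within a day were close together. Mir99b and Mir125a are neighbours on chromosome 17, as Mir99a and Mir125b are on chromosome 16. miR-26 rose by 0.85 ± 0.17, the row of miR-30a-5p, miR-30c-5p and miR-30e-5p by 0.69 ± 0.16 and miR-22-3p by 0.61 ± 0.14 on the log2 scale. Without the second day 7 library none of the 5 passed; miR-30 and miR-22-3p also failed with libraries scaled by their plain totals.

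**Figure D3:**
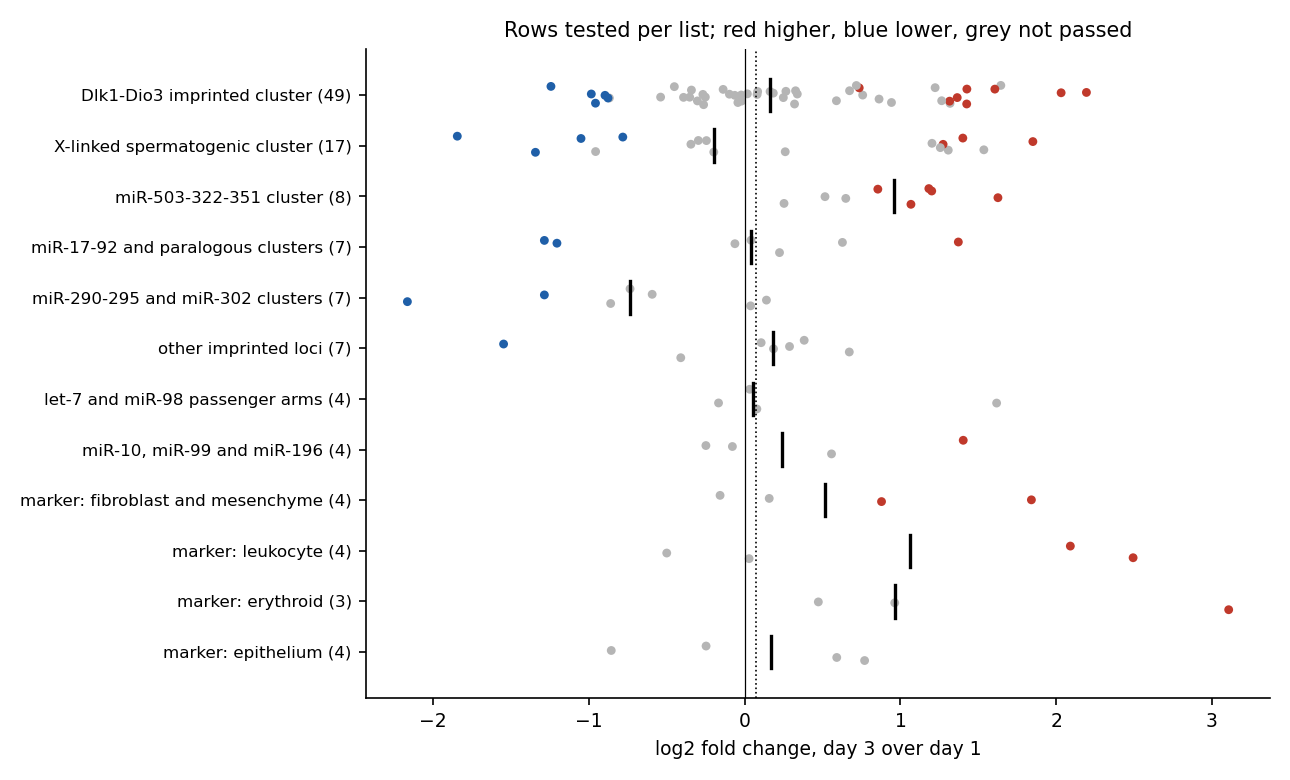
Log2 fold change (day 3 over day 1) of each row tested in 12 lists of miRNAs, with the number of rows in parentheses, the median of a list as a short line and the median of all 854 rows as a dotted line. The miR-503-322-351 cluster, at a median of 0.96, has 5 red points and no blue one, while the Dlk1-Dio3 and X-linked lists have both.

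The Dlk1-Dio3 region holds a large miRNA cluster, expressed from the maternal chromosome. Of the 52 rows of this list in the table, 49 had enough counts to test, of which 8 rose (16.3%), 5 fell (10.2%) and 36 did not pass, with a median log2 fold change of 0.16. These shares were near those of all named rows, 12.5% and 7.55%. Beside those above, miR-376a-3p rose by 2.03 ± 0.41, the row of miR-379-5p by 1.36 ± 0.33, miR-370-3p by 1.32 ± 0.29 and miR-380-3p by 0.74 ± 0.18. miR-434-3p (-0.99 ± 0.19), the row of miR-540-3p (-0.96 ± 0.19), that of miR-410-3p (-0.90 ± 0.21) and miR-431-5p (-0.88 ± 0.16) fell along with miR-409-3p. Of these 8, none kept its call with each library left out in turn. miR-411-5p, at 13792 and 12206 CPM on day 1 and 14735 and 16492 on day 3 (0.26 ± 0.15), and miR-541-5p (0.34 ± 0.22) did not pass.

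The X-linked spermatogenic cluster, a fast-evolving group expressed mainly in the testis, had 17 of its 18 rows tested. Of them 3 rose (17.6%), 4 fell (23.5%) and 10 did not pass, against 12.5% and 7.55% of all named rows, with a median of -0.20. miR-871-3p was at 752 and 1243 CPM on day 1 and at 2322 and 2505 on day 3 (1.27 ± 0.24, adjusted p = 0.022). It reached 7002 and 6990 CPM on day 7. The row of miR-743a-3p and miR-743b-3p, at 6.95 and 11.1 CPM on day 1 and 25.5 and 40.8 on day 3 (1.85 ± 0.35, adjusted p = 0.0213), and miR-880-3p (1.40 ± 0.31) were the others that rose. The days did not overlap in these 3, as in 59.3% of all rows. miR-463-5p, miR-878-5p (-1.05 ± 0.28) and miR-881-3p (-0.78 ± 0.21) fell with the shared row of miR-743a-5p and miR-871-5p. miR-470-5p, at 680 and 1612 CPM on day 1 and 845 and 1153 on day 3, overlapped. Apart from the shared row, each of the 6 other calls of this cluster was lost without the second day 7 library.

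The miR-503-322-351 cluster, a second group on the X chromosome, belongs with cell-cycle exit in muscle and other tissues. Of its 8 rows tested 5 rose (62.5%), none fell and 3 did not pass, with a median of 0.96. Of all named rows 12.5% rose and 7.55% fell, with a median of 0.18. DESeq2 called 4 of the 8, all higher. miR-503-5p was at 6.25 and 8.43 CPM on day 1 and at 25.1 and 20.8 on day 3 (1.63 ± 0.36, adjusted p = 0.0327). miR-450a-5p was at 226 and 158 CPM on day 1 and 346 and 536 on day 3 (1.20 ± 0.28, adjusted p = 0.0349). Its lowest day 3 library stood above both of day 1. The other 3 were miR-450b-5p, miR-351-3p (1.07 ± 0.29) and the row that miR-351-5p shares with miR-125. How much of that row is miR-351-5p cannot be told. miR-322-5p shares the miR-15 and miR-16 row, at 6657 and 6468 CPM on day 1 and 7324 and 13256 on day 3 (0.65 ± 0.27, adjusted p = 0.15). Of the 5, miR-450b-5p alone was stable.

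In the miR-17-92 cluster and its copies, known for driving proliferation, 7 rows were tested, of which 1 rose (14.3%) and 2 fell (28.6%), against 12.5% and 7.55% of all named rows. The row of miR-92a and miR-25 and miR-106b-3p fell, and the row of miR-18 rose from 16.7 and 20.03 CPM to 40.7 and 54.9 (1.37 ± 0.26, adjusted p = 0.0213). The row of miR-17, miR-20 and miR-106 did not pass, at 1773 and 1873 CPM on day 1 and 1848 and 1903 on day 3 (0.04 ± 0.15), nor did that of miR-19, at 635 and 565 CPM on day 1 and 537 and 612 on day 3 (-0.06 ± 0.18). miR-17-3p and its copies (0.63 ± 0.22) and the row of miR-18a-3p (0.22 ± 0.31) did not pass. miR-92a shares its row with miRNAs of other loci. The miR-18 call was lost without either day 1 library and without the second day 7 library.

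The miR-290-295 cluster belongs to embryonic stem cells and early germ cells. Apart from the row shared with miR-92, 6 rows of this list and of miR-302 were tested. Of them 1 fell (16.7%) and none rose, against 7.55% and 12.5% of all named rows. Their median was -0.67, against 0.18 over all named rows. Their summed plain CPM was 388 and 494 on day 1 and 215 and 207 on day 3. The row of the main arms, miR-291a-3p, miR-294-3p, miR-295-3p and miR-302, was at 109 and 223 CPM on day 1 and at 117 and 83.0 on day 3. These libraries overlapped, and it did not pass (-0.74 ± 0.34, adjusted p = 0.191). miR-291a-5p (-0.86 ± 0.31), miR-291b-3p (-0.59 ± 0.22), miR-290a-3p (0.04 ± 0.22) and miR-293-3p (0.14 ± 0.37) did not pass.

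Several families known from the testis did not pass. miR-202-5p, a miRNA of Sertoli and germ cells, was at 2856 and 3089 CPM on day 1 and at 2691 and 2825 on day 3 (-0.11 ± 0.16, adjusted p = 0.665). Its 3p row, shared with let-7j, was at 113 and 149 CPM on day 1 and 134 and 154 on day 3 (0.14 ± 0.21). The miR-34 and miR-449 row, high in later spermatocytes, was at 335 and 262 CPM on day 1 and 525 and 399 on day 3 (0.63 ± 0.26, adjusted p = 0.156), and miR-34b-3p with miR-34c-3p was at 9.73 and 20.03 against 21.2 and 9.53 CPM (0.02 ± 0.52). DESeq2 called none of these 4 rows nor the let-7 row; 1 of the 5, the miR-34 row, had an unadjusted p under 0.05. miR-29 rose from 29.9 and 26.4 CPM to 51.3 and 47.7 (0.82 ± 0.21, adjusted p = 0.0434). Its call was lost with every other scaling and without any 1 of 5 of the 6 libraries. miR-21a-3p rose from 6.25 and 5.80 CPM to 27.9 and 35.3 (2.39 ± 0.41, adjusted p = 0.0192), while miR-21a-5p, at 4376 and 3788 CPM on day 1 and 4187 and 3914 on day 3, did not pass (-0.01 ± 0.16). miR-146 was uneven on day 3, at 852 and 244 CPM (1.18 ± 0.53, adjusted p = 0.178).

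Of the rows tested, 164 pairs are the 5p and 3p arms of one hairpin. Both arms were called in 12 pairs, in the same direction in 5 and in opposite directions in 7: Mir434, Mir409 and Mir540 of the Dlk1-Dio3 region, Mir743 and Mir871 of the X-linked cluster, Mir30a and Mir27b. The ratio of the arms within a library does not depend on how libraries are scaled. Its pseudocount of 0.5 counts does weigh more on a scarce arm in the shallower day 1 libraries. The log2 ratios were tested with limma, a test chosen after the row results were seen. The 7 pairs above all passed. Their ratios combine 2 opposite calls from the same libraries, so that outcome was largely fixed in advance and is no separate support. In all, the test passed in 35 pairs, with the 5p arm gaining in 17 and losing in 18. The number rests on the libraries: it was 33 and 32 without the first or the second day 1 library, 4 and 0 without the first or the second day 3 library, and 3 without either of day 7. It was 59 with a pseudocount of 5. That setting took the change of Mir15a from -2.16 to 0.31 and that of Mir463 from -1.91 to 0.0037. The pairs with opposite calls kept their direction, at 1.39 (Mir30a) to 2.66 (Mir409) and -1.78 (Mir27b) to -3.30 (Mir743). Of the 35 pairs, 14 were among the 56 whose rows each hold 1 named miRNA. Fitted on their own, those 56 gave 7. Of the pairs with opposite calls, only Mir434 and Mir409 are among the 56.

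**Figure D4:**
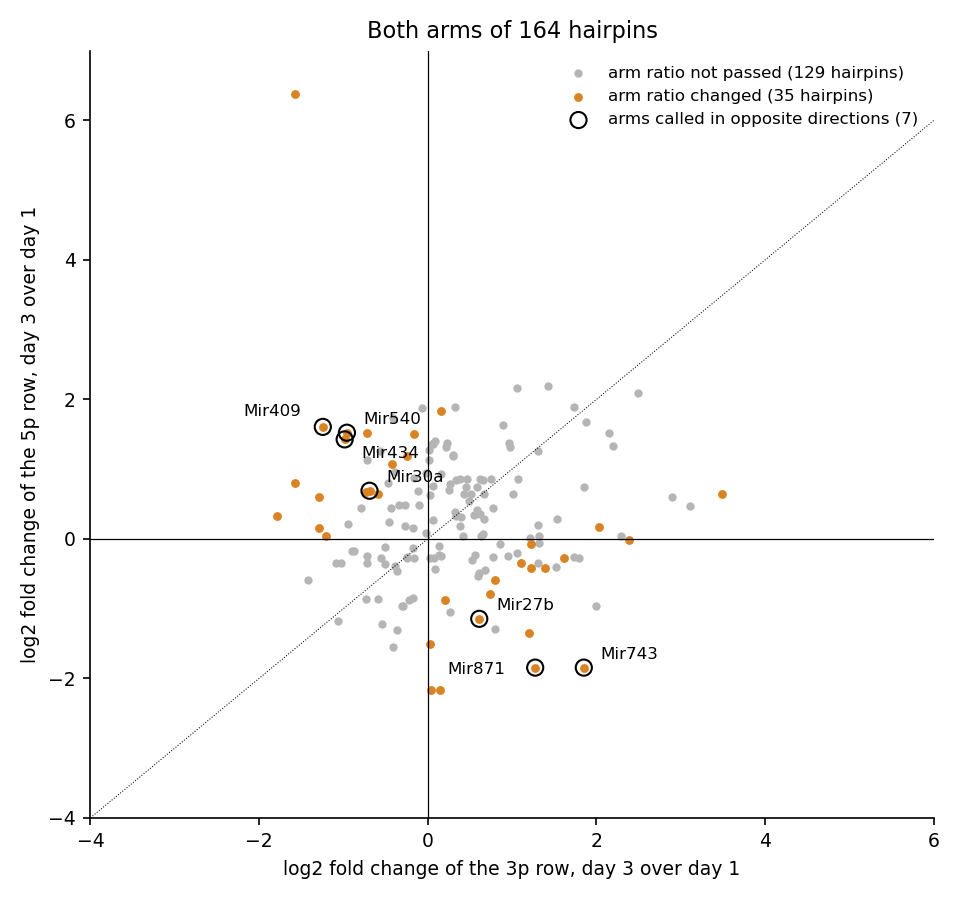
Log2 fold change of the 5p row (vertical) against that of the 3p row (horizontal), day 3 over day 1, for 164 hairpins, with the 35 whose arm ratio changed in orange and the 7 whose arms were called in opposite directions circled. The dotted line marks equal change of both arms, and Mir743 and Mir871 lie at the lower right at the same height because their 5p arms share a row.

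The log2 ratio of miR-434-5p to miR-434-3p was -3.67 and -3.94 on day 1 and -1.05 and -1.71 on day 3. The change of 2.42 ± 0.36 passed (adjusted p = 0.0183), and both day 3 ratios lay above both of day 1. miR-434-3p fell from 10882 and 12573 CPM to 5023 and 6825, so it was the more abundant arm on both days. For Mir409 the log2 ratio went from -3.22 and -3.93 to -1.61 and -0.16 (2.69 ± 0.54, adjusted p = 0.0261); miR-409-5p rose from 167 and 124 CPM to 242 and 643, the day 3 libraries differing by over 2-fold. That rise (1.61 ± 0.44, adjusted p = 0.0496) was lost with every other scaling and without 5 of the 6 libraries, each left out alone. For Mir540 it went from -6.39 and -7.30 to -4.54 and -4.36 (2.39 ± 0.43, adjusted p = 0.0183), with miR-540-5p at 5.56 and 3.69 CPM on day 1. The row of miR-540-3p also holds another named miRNA, so an opposite change of the Mir540 arms is not shown.

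The X-linked pairs moved the other way. The log2 ratio of the miR-871 arms was -0.52 and -0.89 on day 1, -3.71 and -4.01 on day 3 and -3.29 and -3.27 on day 7. Its change from day 1 to day 3 was -3.16 ± 0.31 (adjusted p = 0.0059). For Mir743 the ratio was 6.17 and 5.89 on day 1 and 2.80 and 1.92 on day 3 (-3.67 ± 0.38, adjusted p = 0.0059). Both passed in 5 of the 6 fits that leave out a library. As miR-743a-5p and miR-871-5p share a row, these 2 ratios share their upper term. The row of miR-743a-3p also holds miR-743b-3p. An opposite change of the arms of Mir743 or of Mir871, each taken singly, is therefore not shown. Mir434, Mir409, Mir540 and Mir27b passed in 2 of the 6 fits and Mir30a in 1, and each kept its direction in all 6.

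**Figure D5:**
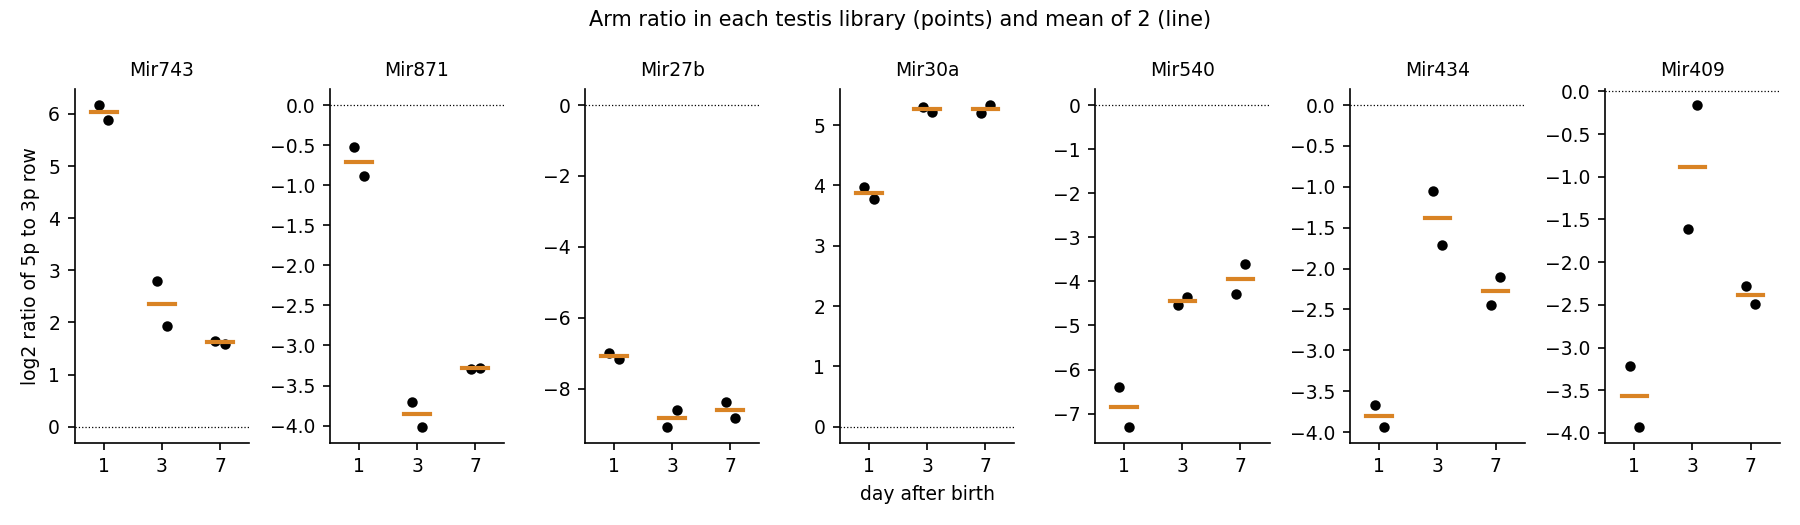
Log2 ratio of the 5p to the 3p row in each library (points) of days 1, 3 and 7 after birth, with the mean of 2 as a line and a dotted line at equal arms, for the 7 hairpins whose arms were called in opposite directions. The ratios of Mir743, Mir871 and Mir27b are lower on day 3 than on day 1 and the other 4 are higher, with no overlap in any panel.

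Mir30a and Mir27b involve abundant families. The row of miR-30a-5p rose from 25037 and 20853 CPM to 38366 and 35698, and that of miR-30a-3p and miR-30e-3p fell from 1590 and 1524 CPM to 970.4 and 959 (-0.69 ± 0.15, adjusted p = 0.0344). The row of miR-27a-3p and miR-27b-3p rose from 13546 and 13632 CPM to 22789 and 18713 (0.61 ± 0.16, adjusted p = 0.0471), and miR-27b-5p fell from 105 and 95.4 CPM to 42.1 and 48.3 (-1.15 ± 0.21, adjusted p = 0.0213). In both pairs the abundant row rose and the scarce row fell, and each of these 4 calls was lost without the second day 7 library. The miR-30a-5p row also holds miR-30c-5p, miR-30e-5p and miR-384-5p, and miR-27a-3p shares the row of miR-27b-3p. An opposite change of the 2 arms of Mir30a or of Mir27b is therefore not shown.

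Of the listed markers of other cells, 22 rows with a RefSeq name were tested. Of these, 5 rose (22.7%, against 12.5% of all named rows), none fell and 17 did not pass. Listed markers that RefSeq's table lacks, such as miR-375-3p and those of smooth muscle, are outside this count. Rows without a name may hold them, also rows that rose or fell. The leukocyte list had 4 rows tested, of which both arms of Mir142 rose and miR-223-3p (0.03 ± 0.36) and miR-155-5p (-0.50 ± 0.45) did not pass. Its summed plain CPM was 62.6 and 55.9 on day 1 and 122 and 178 on day 3. miR-142a-3p had only 1 and 2 counts on day 1, each under the floor of 3, and 48 and 46 on day 3. The ratio of its pooled plain CPM was 5.80 (95% exact binomial interval 1.92 to 28.6, counting error only), and its call was lost in 10 of 18 alternatives, DESeq2 among them. The erythroid list had 3 rows tested, of which miR-144-3p rose, from 7 and 1 counts on day 1, the second under the floor, to 111 and 277 on day 3. Its fitted log2 fold change of 3.11 ± 0.84 (adjusted p = 0.0496) ranged from 2.20 to 5.44 over 19 alternatives, and the call was lost in 10 of them. miR-451a, at 95.9 and 163 CPM on day 1 and 328 and 180 on day 3, did not pass (0.96 ± 0.48). The summed plain CPM of the list was 120 and 163 on day 1 and 313 and 250 on day 3. Of the fibroblast and mesenchyme list, 2 of 4 rows rose, miR-199a-5p and miR-214-5p, the latter from 148 and 159 CPM to 319 and 246 (0.88 ± 0.20, adjusted p = 0.0349). Its summed plain CPM was 14588 and 13423 on day 1 and 17763 and 18461 on day 3. Of the 5 marker rows that rose, miR-199a-5p and miR-142a-5p were stable. The part of these cells in the results above was not tested. miR-126a-3p of the endothelium (0.17 ± 0.19) and the 4 epithelial, 2 neural, 2 striated muscle, 1 endocrine and 1 cartilage rows with a RefSeq name did not pass.

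RNA libraries of the same days, 2 per day, were counted on genes. Markers of the testis were present in all 4: Amh of Sertoli cells at 1278 and 1222 CPM on day 1 and 1660 and 986 on day 3, and Dazl of germ cells at 65.3 and 130 against 64.0 and 91.5. Hsd3b1 of Leydig cells was at 675 and 661 CPM on day 1 and at 519 and 388 on day 3. None of the 8 Sertoli, 8 germ cell, 6 Leydig, 5 peritubular, 5 endothelial, 5 macrophage, 2 erythroid or 4 epithelial genes tested passed edgeR's test. Of these 43 genes, DESeq2 called 4, and 15 were at an unadjusted p under 0.05.

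Over all genes, 7 of the 15233 genes tested passed edgeR's test (0.046%), all 7 lower on day 3 (0.046%), and 0 higher (0%), against 297 with DESeq2, 134 of them higher, and 2829 at an unadjusted p under 0.05. Without the second day 3 RNA library edgeR called 6665 genes, without the first 440, and without any 1 of the other 4 libraries none.

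Transcripts that carry, overlap or neighbour miRNA hairpins were not called in the RNA table. Of 41 tested none passed, with a median log2 fold change of 0.01; DESeq2 called 3, all lower, and 7 were at an unadjusted p under 0.05. Mirg, which carries many Dlk1-Dio3 hairpins, was at 16.4 and 15.3 CPM on day 1 and at 33.3 and 20.5 on day 3 (0.78 ± 0.25, adjusted p = 0.203). Rian was at 299.6 and 249.5 CPM on day 1 and 378 and 311 on day 3 (0.33 ± 0.16), and Meg3 at 1466 and 1063 against 1168 and 1149 (-0.13 ± 0.18). The day 1 and day 3 libraries overlapped in Meg3 and not in Mirg or Rian. Dnm3os, host of a miR-199a and a miR-214 hairpin, was at 388 and 229 CPM on day 1 and at 148 and 195 on day 3 (-0.85 ± 0.25, adjusted p = 0.193), below day 1 in both libraries, whereas miR-199a-5p was above it in both. Mcm7, which carries Mir106b and Mir25, was at 99.8 and 101 CPM on day 1 and 122 and 114 on day 3 (0.23 ± 0.13), and Mir17hg at 17.4 and 18.9 against 21.1 and 14.8 (-0.00436 ± 0.20).

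The genes that make and use miRNAs were not called either: of 19 tested none passed, with a median of -0.36, 3 with an unadjusted p under 0.05 and 0 called by DESeq2. Dicer1, which cuts the duplex from the hairpin, was at 191 and 193 CPM on day 1 and at 108 and 177 on day 3 (-0.43 ± 0.22, adjusted p = 0.326). Eif2c2, the table's name for the Argonaute gene Ago2, was at 117 and 130 CPM on day 1 and at 19.4 and 117 on day 3, so its difference of -0.88 ± 0.66 on the log2 scale came with a low first day 3 library. The let-7 repressors Lin28a, at 6.80 and 14.1 CPM on day 1 and 10.4 and 21.5 on day 3 (0.54 ± 0.41), and Lin28b, at 6.63 and 7.44 against 3.27 and 5.41 (-0.76 ± 0.27), did not pass. Lin28a libraries overlapped between the days and Lin28b libraries did not.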

How the data were processed

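Both tables hold raw counts per library, as deposited by the authors, with whole numbers that sum to a different total in each column. Per the submitters' processing notes, the tools were Bowtie 0.12.7, BWA 0.7.8, HTSeq 0.6.1 and edgeR 3.6.8, and the genome build was mm9. Not given in the sources used here are trimming, the treatment of reads that map more than once and the tool behind each table. The small RNA libraries were made with a TruSeq kit from TRIzol extracts, per the labels' protocols. The ligation and PCR of such kits favour some sequences, so levels of different miRNAs are less comparable than 1 miRNA between days. The RNA table has 5 summary rows of HTSeq, which held 44.7% to 51.8% of the testis reads and were kept out of totals and tests.

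The 6 testis libraries of an assay (days 1, 3 and 7, 2 each) entered one model in R 4.3.3 with edgeR 4.0.16: filterByExpr with a minimum count of 10, TMM scaling, quasi-likelihood F test of day 3 against day 1, two-sided, Benjamini-Hochberg adjustment over all rows tested. This kept 854 of 4940 small RNA rows and 15233 of 23366 genes, and left 3 residual degrees of freedom. A standard error is the size of the log2 fold change divided by the root of its F value. The p-values measure the spread between 2 replicates per stage. Replicates all differed by more than sampling noise (chi-square per row of at least 26.9 for small RNA). Arm ratios were tested with limma 3.58.1 on log2 counts plus 0.5.

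Named were the 12 largest rises and falls past the test at a mean of 100 CPM or more on the higher day, with no overlap, the 12 most abundant rows, up to 3 members per list and fixed families. Partner arms of hairpins, the other stable rows and the further members of the Dlk1-Dio3, X-linked, miR-503-322-351 and marker lists were added after their values were seen. The rows, lists and comparison were chosen with earlier results of these data known. miRNAs that RefSeq's table lacks were not analysed here by name; the listed miRNAs of the Sfmbt2, smooth muscle and liver lists had no entry. Mature sequences and their positions are RefSeq's, on GRCm38.p6, and were not mapped to the authors' build. Whether same-numbered libraries were prepared together is not given in the sources used here. Deviations of same-numbered libraries of days 1 and 3 had a correlation of -0.0628 over the rows. The rows share the same few libraries, so this value cannot decide it.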

Additional observations from a re-analysis of the deposited data

How the results depend on the processing

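No named row changed direction while called in any of the 17 to 19 alternatives in which it could be tested. The number of small RNA rows past the test, 131, became 84 with libraries scaled by plain totals, 27 with only the 4 libraries of days 1 and 3, 0 with all 10 libraries, 0 against a 2-fold minimum and 33 with a replicate block, for samples that share only a number; leaving out 1 library gave 27 to 173. Of the 43 named rows past the test, 28 lost the call in at least 1 alternative beyond those 2 that called none. For RNA, 7 calls became 222 without the filter on low counts, 297 with DESeq2, and 0 against a 2-fold minimum, with 4 or 10 libraries and with the replicate block, with 0 to 6665 when 1 library was left out. The 35 arm ratios became 59 with a pseudocount of 5 counts, 7 when the model was fitted only on the 56 of 164 pairs whose rows each hold 1 miRNA (14 of these 56 passed in the fit of all pairs), and 0 to 33 with 1 library left out. The cause of these changes was not tested. Day and depth cannot be told apart, as both day 3 libraries were deeper than both of day 1; thinned to the smallest library, 527 rows could be tested and 110 passed. A lone library of a day was assumed to vary like the other stages.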

Other observations

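The changes were spread over the genome's miRNA loci, with values that differ between chromosomes. Of 52 rows tested whose named miRNAs all lie on the X chromosome, 12 rose (23.1%) and 7 fell (13.5%), with a median log2 fold change of 0.26. On chromosome 12, with 76 rows, 11 rose (14.5%) and 4 fell (5.26%), with a median of 0.17. Over all rows with a RefSeq name, which these are drawn from, the shares were 12.5% and 7.55%, with a median of 0.18. None of the 11 rows of chromosome 10 or the 6 of chromosome 15 passed edgeR's test. These rows share libraries and clusters, and whether the chromosomes differ was not tested.

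Of 50 rows with at least 1000 CPM in the higher group, 13 rose (26%) and 11 fell (22%), against 8.67% and 6.67% of all rows tested; the difference was not tested. Of 424 rows with a RefSeq name, 53 rose and 32 fell; of 237 rows that lie 1 base from a named seed, 16 rose and 11 fell. Among these 27 shifted rows, 15 had a source row called in the same direction, so the calls are not all separate families. The other 193 rows without a name had 5 higher and 14 lower. Called rows held on average 3.51 (higher) and 3.26 (lower) G or C among their 7 bases, against 3.40 in rows that did not pass, with an SD of 1.22 over all rows.

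RNA libraries of day 1 and day 3 did not overlap in 7370 of 15233 genes (48.4%). In the peritubular list, DESeq2 called 3 of 5 genes higher on day 3 where edgeR called none and 3 had an unadjusted p under 0.05. Over all 15233 genes DESeq2 called 134 higher, and in the other marker lists 1 gene, an endothelial one, lower. Des (0.59 ± 0.30) and Myh11 (0.11 ± 0.23) of the peritubular list overlapped between the days. Acta2, smooth muscle actin, was at 493 and 409 CPM on day 1 and at 916 and 674 on day 3 (0.82 ± 0.19, adjusted p = 0.157), with no overlap, and Tagln at 187 and 144 against 448 and 269 (1.11 ± 0.25, adjusted p = 0.157).

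Several rows had a day 7 level outside the range of days 1 and 3. The X-linked cluster had a summed plain CPM of 3363 and 4572 on day 1, 3453 and 5535 on day 3, and 24553 and 23839 on day 7. miR-202-5p was at 5876 and 6823 CPM on day 7, above all 4 earlier libraries. miR-434-5p and miR-199a-5p, by contrast, were lower on day 7 than on day 3 in both libraries. The step to day 7 was not tested here.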
